A study of Mus musculus with 24 samples.

Results

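A set of 7 transcription factor genes were followed through the developing cortex of *Cep135*-mutant mice: *Cux1*, *Cux2*, *Pou3f1*, *Pou3f2*, *Pou3f3*, *Mef2c* and *Rorb*. They are the rows of the expression table that carry these 7 symbols, 7 of 54658 genes, and were picked as identity factors of upper-layer and callosal neurons. The 24 libraries came from dorsal telencephalon (cortex) of E11.5 and E14.5 embryos and from E14.5 cortical progenitors cultured for 12 or 24 h, the stage of incipient neurospheres. Each of these 4 conditions held 3 *Cep135* (-/-) mutants, homozygous for the Δ8 allele, and 3 *Cep135* (+/+) controls. At E11.5 the mutant embryos are called A, B and C and the controls D, E and F. By the prefix of their titles A and D form 1 group and B, C, E and F another, and for B and C the description gives this prefix with another letter. The E14.5 mutants are numbered 1, 2 and 6 and the controls 3, 4 and 5, and the cultures at both times came from these same 6 embryos. All embryos descended from heterozygous matings of a CRISPR/Cas9-edited line made in B6.CBA zygotes, and the study states that its mice were kept on a C57BL/6J background. All cultures, controls included, were grown in EGF and FGF2. For the cortex of mutant 6 the title says E14.5 and the description E11.5, and the title was used.

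Cortical projection neurons are born in sequence, deep-layer cells first and upper-layer cells later, and the upper layers send most of the axons of the corpus callosum. CUX1 and CUX2 are homeodomain proteins of upper-layer neurons that also act in dendrite and synapse formation, and the POU3F proteins (BRN family) act in progenitors and migrating neurons that will form these layers. RORB is a nuclear receptor that marks layer 4, and MEF2C is a MADS-box factor of differentiating cortical neurons that controls synapse number, and is also present in endothelium and microglia.

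RNA was read at the 3′ ends of transcripts, and values are read counts divided by 1 size factor per library, called normalized read counts here. The libraries held 4732781 to 11645213 reads on genes, and the 7 genes were read well above the limit of detection: the lowest count was 97 reads (*Rorb*) and the highest 3427 (*Pou3f3*). *Pou3f1*, *Pou3f2* and *Pou3f3* have 1 annotated transcript each, whereas protein-coding transcripts of *Cux1*, *Cux2*, *Rorb* and *Mef2c* end at 7, 5, 2 and 25 annotated sites, which are summed in these values. Of the 31-base words in the last 500 bases of these transcripts, at most 0.957% (*Rorb*) occurred in another gene. *Cep135* itself did not differ by genotype in any condition (log2 fold changes -0.15 to 0.15, lowest adjusted p = 0.85, limma), and since reads at the 3′ end do not cover the deleted bases this gives no check of the labels. *Cdkn1a*, which encodes a cell cycle inhibitor, was higher in all 3 mutants of each condition than in the controls. Genotypes lay apart like this, in either direction, for 11% to 16.2% of all genes within a condition. The test was passed at 24 h, at 2158 to 2248 against 920 to 1348 (log2 fold change 1.02, adjusted p = 0.0109, limma). It was not passed at E11.5, E14.5 or 12 h (1.16, 0.83 and 0.80, adjusted p = 0.197, 0.31 and 0.913, limma). The libraries differed in the share of reads on *Gm42418*, an RNA gene with ribosomal sequence (6.11% to 34.8%), and in liver transcripts.

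*Mef2c* (ENSMUSG00000005583, GRCm38 chromosome 13, 83504034 to 83667080, plus strand) was the member with the largest difference between genotypes. At E11.5 mutants A, B and C had normalized read counts of 299, 267 and 271, and controls D, E and F had 266, 310 and 256. By E14.5 mutants 1, 2 and 6 had 1371, 1020 and 1027, and controls 3, 4 and 5 had 1448, 1540 and 1602. The genotypes overlapped at E11.5, and at E14.5 every mutant lay below every control.

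After 12 h in culture the *Mef2c* counts of mutants 1, 2 and 6 were 1267, 888 and 835, against 2160, 1844 and 1377 for controls 3, 4 and 5. After 24 h the mutants stood at 1307, 1012 and 1262 and the controls at 1800, 2140 and 1833. No mutant culture reached the lowest control culture of its time, and mutant 1 was the highest mutant in the E14.5 cortex and at both culture times. Ordered by mean, the 8 groups ran from control and mutant E11.5 cortex through the 12 h cultures, E14.5 cortex and 24 h cultures of mutants to E14.5 cortex, 12 h and 24 h cultures of controls. Of the 7 pairs of neighbours in this order 2 did not overlap, the step from E11.5 to the later mutants and the step from the 24 h mutant cultures to the E14.5 control cortex.

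The mutant difference of *Mef2c* passed the test in the 24 h cultures, with a log2 fold change of -0.69 (SE 0.13, n = 3 per genotype, adjusted p = 0.0444, limma with Benjamini-Hochberg adjustment over 13300 genes). It was -0.85 (SE 0.20, adjusted p = 0.853, limma) at 12 h, -0.44 (SE 0.14, adjusted p = 0.461, limma) in E14.5 cortex and 0.01 (SE 0.13, adjusted p = 0.988, limma) in E11.5 cortex. Exact permutation tests gave p = 0.1 in each of the 3 later conditions, which is the smallest 3 against 3 allows. The call at 24 h was lost when any 1 of the 6 libraries was left out, with log2 fold changes of -0.76 to -0.58 and adjusted p of 0.0552 to 0.193 in limma. It was also lost with edgeR (adjusted p = 0.0565) and with a term for sex (adjusted p = 0.251, limma), whereas DESeq2 kept it (adjusted p = 0.00122). The study's own gene lists of the 12 and 24 h cultures hold *Mef2c* and *Rorb*, so these cultures are not independent evidence for either gene.

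*Rorb* (ENSMUSG00000036192, chromosome 19, 18930605 to 19111196, minus strand) lay below the controls in mutant cultures too, without passing the test. At E11.5 the *Rorb* counts of mutants A, B and C were 62.6, 139 and 93.0, against 124, 119 and 160 for controls D, E and F. By E14.5 mutants 1, 2 and 6 had 303, 244 and 279, against 336, 323 and 345 for controls 3, 4 and 5. As for *Mef2c*, the genotypes overlapped at E11.5 and lay apart at E14.5.

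At 12 h the mutants stood at 593, 671 and 538 and the controls at 971, 807 and 890. At 24 h the mutants stood at 712, 663 and 842 and the controls at 1024, 1127 and 1020. Again no mutant culture reached the lowest control of its time. The log2 fold change was -0.57 (SE 0.17, adjusted p = 0.913, limma) at 12 h and -0.52 (SE 0.13, adjusted p = 0.122, limma) at 24 h, and DESeq2 called the latter (adjusted p = 0.0491). In the cortices it was -0.51 (SE 0.26, adjusted p = 0.681, limma) at E11.5 and -0.29 (SE 0.14, adjusted p = 0.564, limma) at E14.5. *Rorb* had the clearest order of conditions, rising from E11.5 cortex to E14.5 cortex to cultures, and 4 of its 7 neighbouring pairs of group means did not overlap.

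**Figure D1:**
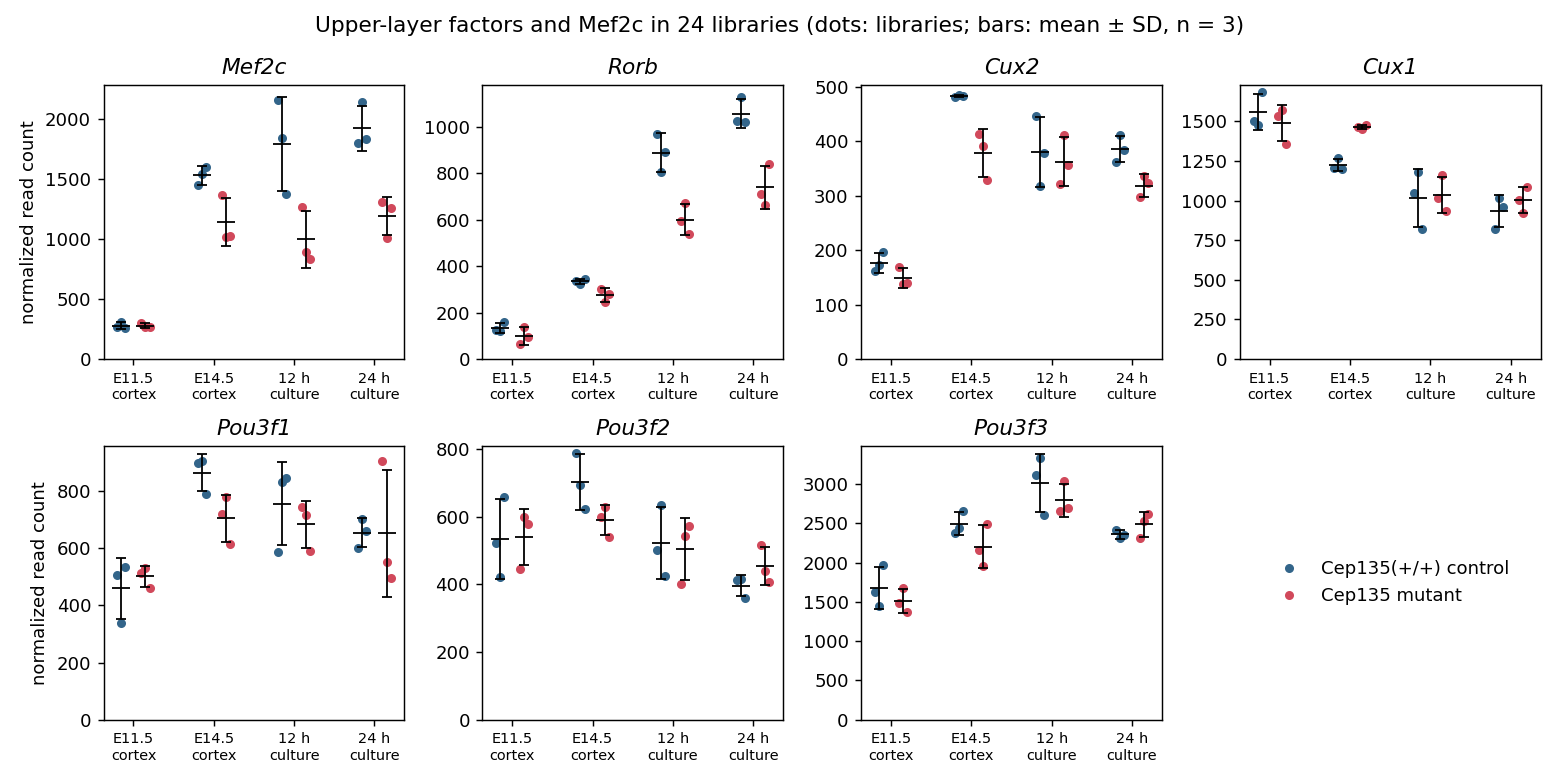
Normalized read counts of the 7 genes in the 24 libraries, with 1 dot per library, the mean and SD of 3 libraries as bars, and genotypes by colour. The mutant dots of *Mef2c* and *Rorb* lie below all control dots in E14.5 cortex and at both culture times, and the *Cux1* dots of E14.5 mutants (1452 to 1480) lie above those of controls (1198 to 1271).

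The upstream sequences of *Mef2c* and *Rorb* are shown because these genes had the largest differences in culture. RefSeq windows (GRCm38.p6) were found for 6 of the 7 genes, and those that end just before the first annotated base of the gene are printed 5′ to 3′ on the gene's strand, as the 250 bases at chr13:83503784-83504033 (plus strand) for *Mef2c* and at chr19:19111197-19111446 (minus strand) for *Rorb*. Capitals mark the E-box CANNTG, the letters read by basic helix-loop-helix factors such as the neurogenins:
Mef2c: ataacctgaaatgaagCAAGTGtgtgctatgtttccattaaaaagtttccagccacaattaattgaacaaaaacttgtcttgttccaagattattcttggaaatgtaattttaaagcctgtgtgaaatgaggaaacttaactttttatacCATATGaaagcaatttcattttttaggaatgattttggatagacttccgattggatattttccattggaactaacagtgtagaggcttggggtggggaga
Rorb: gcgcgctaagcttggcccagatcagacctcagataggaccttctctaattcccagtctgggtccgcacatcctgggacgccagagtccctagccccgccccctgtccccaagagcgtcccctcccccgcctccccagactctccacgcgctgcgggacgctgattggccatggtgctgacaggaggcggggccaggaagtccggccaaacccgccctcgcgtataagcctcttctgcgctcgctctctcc
The *Mef2c* window had 33.6% G and C and the *Rorb* window 66.0%, against a median of 52.4% over 32851 windows of the same length. The *Mef2c* window held 2 E-boxes, beginning 234 and 100 bases before the start, and the *Rorb* window held none, while 66.2% of all windows hold at least 1. The POU octamer ATGCAAAT (on either strand, in 1.60% of windows), the half-site AGGTCA of ROR receptors (14.0%) and the MEF2 consensus (2.92%) did not occur in these 2 windows. RefSeq has further windows, at other starts of the same genes. The other 2 *Mef2c* windows held 3 ROR half-sites and 1 E-box, the other *Rorb* window held 2 E-boxes, and neither the octamer nor the MEF2 consensus occurred there. These are matches of letters in a short window and not measured binding.

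*Cux2* (ENSMUSG00000042589, chromosome 5, 121856366 to 122050102, minus strand) had E11.5 counts of 170, 138 and 139 for mutants A, B and C, against 162, 172 and 197 for controls D, E and F. By E14.5 mutants 1, 2 and 6 had 414, 392 and 330, against 481, 486 and 484 for controls 3, 4 and 5. The genotypes overlapped at E11.5. The 3 E14.5 controls were close to each other (484 ± 2.25, SD, n = 3), above every mutant. At 12 h the mutants had 321, 411 and 356 and the controls 447, 318 and 378, which overlap. At 24 h the mutants had 297, 337 and 323 and the controls 363, 411 and 384, again apart. The log2 fold change was -0.36 (SE 0.14, adjusted p = 0.507, limma) in E14.5 cortex and -0.28 (SE 0.15, adjusted p = 0.553, limma) at 24 h. Over the 12 cortices with age as a term it was -0.30 (SE 0.09, adjusted p = 0.362, limma), with p = 0.01 in an exact permutation test within age, where 0.005 is the smallest p. None of these passed the adjustment over all genes.

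*Cux1* (ENSMUSG00000029705, chromosome 5, 136248135 to 136567490, minus strand) went the other way at E14.5. Mutants 1, 2 and 6 had counts of 1466, 1452 and 1480, and controls 3, 4 and 5 had 1206, 1271 and 1198, so that every mutant lay above every control (log2 fold change 0.26, SE 0.11, adjusted p = 0.535, limma). At E11.5 mutants had 1535, 1573 and 1360 against 1504, 1479 and 1687 for controls, which overlap. The 12 h mutant cultures had 1018, 1160 and 932 against 1051, 1178 and 820, and the 24 h ones 1007, 923 and 1083 against 823, 1016 and 961, overlapping at both times. The gene also encodes CASP, a Golgi protein without the homeodomain that ends in other 3′ exons, so a value here sums both products. *Cux1* and *Cux2* lie 59.6 and 45.2 Mb from *Cep135* on the same chromosome, and whether DNA of the edited zygotes' strain is linked to the allele there was not tested.

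Of the *Pou3f* genes, *Pou3f1* had genotypes that lay apart, at E14.5. *Pou3f1* (ENSMUSG00000090125, chromosome 4, 124656807 to 124660655, plus strand) had counts of 718, 779 and 616 for E14.5 mutants 1, 2 and 6, against 898, 905 and 790 for controls 3, 4 and 5. These do not overlap, with a log2 fold change of -0.30 (SE 0.13, adjusted p = 0.547, limma). In the other 3 conditions its genotypes overlapped, and the widest spread was in the 24 h mutants, at 906, 552 and 496 in 1, 2 and 6 against 601, 703 and 660 in controls. *Pou3f2* (ENSMUSG00000095139, chromosome 4, 22482780 to 22488366, minus strand) and *Pou3f3* (ENSMUSG00000045515, chromosome 1, 42695768 to 42703176, plus strand) overlapped in all 4 conditions. *Pou3f2* means ran from 396 ± 30.9 in 24 h controls to 701 ± 83.5 in E14.5 controls, and *Pou3f3* means from 1509 ± 158 in E11.5 mutants to 3013 ± 372 in 12 h controls (SD, n = 3). For each of the 3 *Pou3f* genes all 7 neighbouring pairs of group means overlapped.

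Counted together, 0 of the 7 genes passed the test between genotypes in E11.5 cortex, 0 in E14.5 cortex, 0 at 12 h, 1 at 24 h (*Mef2c*) and 0 over both cortex ages in limma. Over all genes the share called was 0.0149%, 0.0736%, 0%, 0.271% and 0.139% in the same order. At an unadjusted limma p under 0.05 the members numbered 0, 4, 2, 2 and 2, against 7.39%, 9.10%, 4.85%, 10.6% and 8.71% of all genes tested. DESeq2 called 0 members at E14.5, 0 at 12 h and 2 at 24 h, where it called 0.471%, 0.0672% and 1.37% of all genes. EdgeR called 0 members in these 3 comparisons and 0.0663%, 0% and 0.301% of all genes. Genotypes did not overlap for 0 members in E11.5 cortex, against 13.3% of all genes tested. In E14.5 cortex they did not overlap for 5 members, 4 lower in mutants and *Cux1* higher, against 13.7% of all genes. At 12 h this held for 2 members (11% of all genes), at 24 h for 3 (16.2%), and at both cortex ages together for 0 (1.33%), and all 5 of the culture cases were lower in mutants. The median log2 fold change of the members was -0.06 at E11.5, -0.29 at E14.5, -0.10 at 12 h and -0.06 at 24 h, against 0.02, 0.01, -0.02 and -0.01 over all genes. The members were chosen with earlier results of these data known, so counts or medians beyond those of all genes are not independent evidence.

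**Figure D2:**
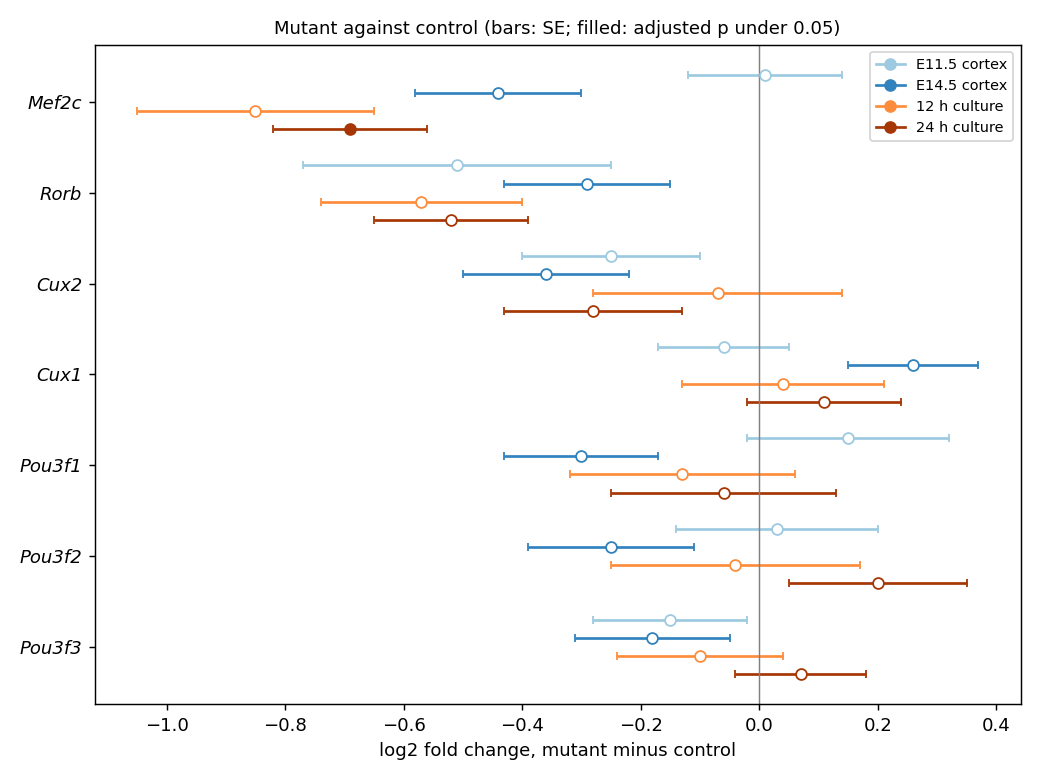
Log2 fold change of mutant minus control for the 7 genes (points) with its standard error (bars) in each of the 4 conditions, filled where the adjusted p is under 0.05. *Mef2c* at 24 h (-0.69) is the only filled point, and *Rorb* lies left of 0 in all 4 conditions (-0.57 to -0.29).

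The genotype difference was also compared between conditions. In limma it was not called as different for any of the 7 genes between E14.5 and E11.5 cortex, between 12 h culture and E14.5 cortex, between 24 and 12 h, or between 24 h culture and E14.5 cortex, and 0% of all genes were called in each. At an unadjusted p under 0.05 these comparisons held 2, 0, 0 and 1 members, against 7.84%, 5.32%, 2.38% and 6.16% of all genes. For *Mef2c* the difference between genotypes changed by -0.45 (SE 0.18, adjusted p = 0.62, limma) from E11.5 to E14.5 and by -0.41 (SE 0.27, adjusted p = 0.793, limma) from E14.5 cortex to 12 h. No difference between the conditions was thus shown for its genotype effect.

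Between E11.5 and E14.5 most of the 7 genes changed in level. All E14.5 samples share a name prefix that no E11.5 sample carries, so age and this grouping cannot be told apart in either genotype. In control cortex 6 of the 7 genes differed between E14.5 and E11.5, 5 higher and 1 lower, where 37.1% of all genes were called. *Mef2c* rose most, by 2.46 on the log2 scale (SE 0.12, adjusted p = 1.13e-06, limma), a 5.51-fold rise, and the fold changes here are on the scale of the log2 count plus 1. *Cux2* rose by 1.45 (SE 0.13, adjusted p = 2.7e-05, limma) and *Rorb* by 1.32 (SE 0.15, adjusted p = 0.000127, limma). *Pou3f1* and *Pou3f3* rose by 0.94 and 0.58 (adjusted p = 0.00231 and 0.00712, limma), while *Pou3f2* missed the threshold at 0.41 (adjusted p = 0.0846, limma). *Cux1* fell by 0.34 on the log2 scale (adjusted p = 0.0296, limma), a call lost when control D, F, 3 or 4 was left out (values of -0.38 to -0.28 over all 6). The *Cux1* call was also lost without the filter on the mean count and with median-of-ratios rescaling. As the tissue is bulk, fewer cells of a type and less RNA per cell cannot be told apart in this or any other comparison.

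In mutant cortex 5 of the 7 rose with age and none fell, where 39.3% of all genes were called. *Mef2c* rose by 2.01 (SE 0.14, adjusted p = 1.28e-06, limma), *Rorb* by 1.54 (SE 0.24, adjusted p = 0.000414, limma) and *Cux2* by 1.34 (SE 0.15, adjusted p = 4.13e-05, limma). *Pou3f3* rose by 0.54 and *Pou3f1* by 0.48 (adjusted p = 0.00567 and 0.0114, limma). The call of *Pou3f1* was lost without mutant C or 2 and in a fit of all 24 libraries. *Cux1* was flat in mutants (-0.02, SE 0.11, adjusted p = 0.899, limma) where it fell in controls, though the difference between these 2 changes was not called.

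On culture of the E14.5 cells *Rorb* rose in both genotypes. The log2 fold change from cortex to 12 h was 1.40 (SE 0.15, adjusted p = 0.000232, limma) in controls, where 1 member and 16% of all genes were called. It was 1.12 (SE 0.16, adjusted p = 0.00272, limma) in mutants, where 2 members and 8.95% of all genes were called. The other member called was *Cux1*, which fell by 0.51 on the log2 scale in mutants (adjusted p = 0.0378, limma), a call lost without the cortex of mutant 1, 2 or 6 or the 12 h culture of mutant 1. *Mef2c* moved by 0.21 in controls and -0.20 in mutants, neither past the test (adjusted p = 0.429 and 0.523, limma). Between 12 and 24 h 0 members were called in either genotype by limma, edgeR or DESeq2, where limma and edgeR each called 0.015% of all genes in controls and 0.00748% in mutants, and DESeq2 0.323% and 0.172%. At an unadjusted limma p under 0.05 there was 1 member in controls, *Pou3f3* (-0.34), and 0 in mutants, against 6.10% and 4.28% of all genes.

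**Figure D3:**
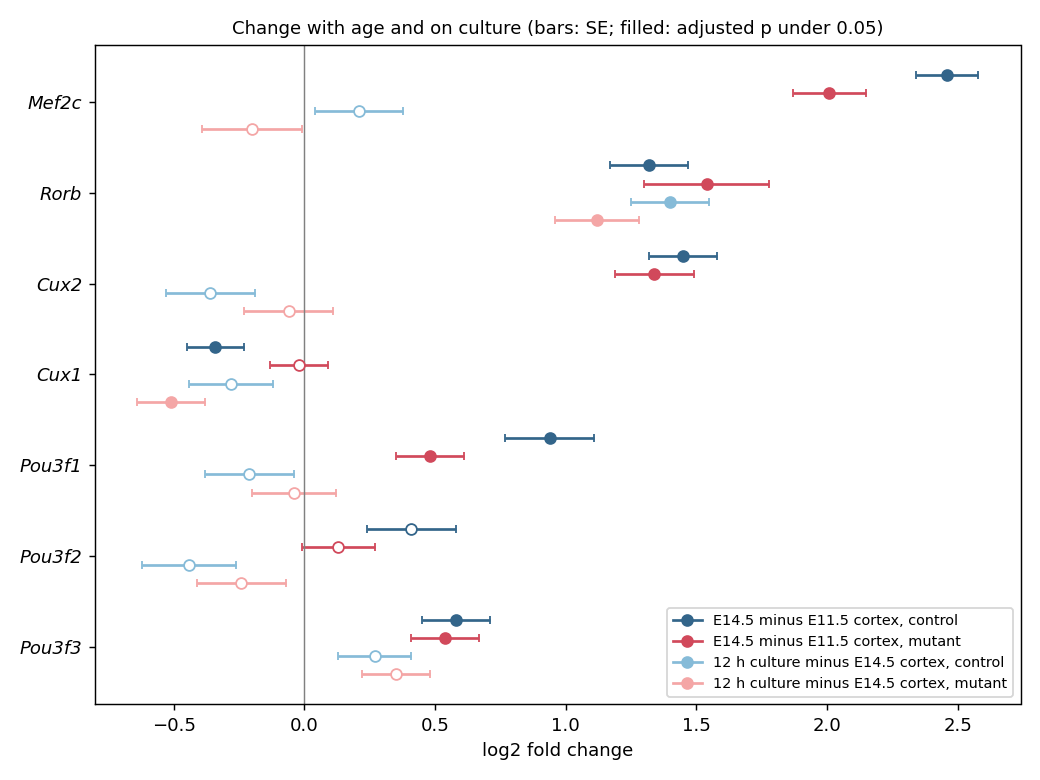
Log2 fold change with its standard error (bars) from E11.5 to E14.5 cortex and from E14.5 cortex to 12 h culture, for controls and mutants, filled where the adjusted p is under 0.05. *Mef2c* and *Cux2* lie far right of 0 with age (1.34 to 2.46) and not on culture, whereas *Rorb* lies right of 0 in both (1.12 to 1.54).

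The other genes of these pathways give the setting. Of 6 further members of the same families, 4 had enough reads to be tested, and 0 were called between genotypes in any condition by limma, or by edgeR and DESeq2 where run, with at most 1 at an unadjusted p under 0.05 within a condition. *Mef2d*, a paralog of *Mef2c*, had log2 fold changes of -0.41 in E14.5 cortex and -0.55 at 24 h (adjusted p = 0.536 and 0.28, limma), and *Mef2a* of -0.03 and 0.04 (adjusted p = 0.955 and 0.953, limma). With age *Mef2a* rose in both genotypes (0.52 in controls and 0.50 in mutants, adjusted p = 0.00821 and 0.0144, limma), by less than *Mef2c* did.

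Of 10 other upper-layer or callosal genes 0 were called between genotypes by limma in any condition, and 0, 3, 1 and 3 had an unadjusted p under 0.05 at E11.5, E14.5, 12 h and 24 h. DESeq2 called 1 at E14.5 and 1 at 24 h. In E14.5 cortex 6 of the 10 had lower means in mutants, with a median of -0.18. *Bhlhe22*, a basic helix-loop-helix factor of area and layer identity, was at 938 to 1090 in 24 h mutants and 1410 to 1770 in controls (-0.64, SE 0.13, adjusted p = 0.0562, limma). *Unc5d*, a netrin receptor of migrating upper-layer neurons, was at -0.64 in E14.5 cortex (adjusted p = 0.461, limma). With age in control cortex 6 of these 10 rose and 2 fell, *Bhlhe22* (3.97) and *Unc5d* (3.77) rising most (adjusted p = 3.65e-06 for both, limma).

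Of 11 deep-layer and subplate factors, 10 had lower means in E14.5 mutants with a median of -0.32, though limma called 0 (5 at an unadjusted p under 0.05, and 2 in DESeq2), and 1 was called at 24 h. That gene, *Fezf2*, the selector of subcerebral projection neurons, was at 523 to 744 in mutants and 1030 to 1110 in controls (-0.84, SE 0.15, adjusted p = 0.0295, limma), and the count of called deep-layer genes was 0 without mutant 2 or 6 or control 3 or 5. *Sox5* and *Bcl11b*, factors of corticofugal neurons, were at -0.73 and -0.51 in E14.5 cortex (adjusted p = 0.112 and 0.331, limma). *Nr4a2*, a subplate marker, was at -0.78 at 24 h (adjusted p = 0.0669, limma). Of the 11 factors 8 had lower means in mutants at 24 h, with a median of -0.22. *Etv1* went the other way there, at 542 to 663 in mutants and 391 to 464 in controls (0.48, adjusted p = 0.219, limma). Lower means in mutants at E14.5 were thus found among deep-layer as well as upper-layer genes, and no difference between these lists was tested.

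Summed markers of some cell types also differed between genotypes, in some of the conditions. The summed level of 8 postmitotic neuron markers was 30044 to 32849 in E14.5 mutants against 37340 to 40081 in controls, and 30347 to 34632 against 38189 to 42633 at 24 h. At 12 h the sums overlapped (29168 to 34725 and 34419 to 42468). At E11.5 they overlapped as well (8810 to 10336 in mutants and 8625 to 13352 in controls). Of the 8, all had lower means in mutants at E11.5, 7 at E14.5 and all 8 at both culture times, with 1 called at E14.5, 1 at 24 h and 0 at E11.5 and 12 h in limma. Their median log2 fold changes were -0.41, -0.31, -0.22 and -0.36 in the order of the conditions, where *Mef2c* was at 0.01, -0.44, -0.85 and -0.69. Summed apical progenitor markers were 12079 to 13277 in 24 h mutants against 9389 to 10593 in controls, with 0 of 8 called, and overlapped in the other conditions. Intermediate progenitor sums overlapped at E11.5 and at E14.5 (2878 to 3238 in mutants and 2954 to 3257 in controls). They were higher in mutants at 12 h (2016 to 2247 against 1729 to 1848) and 24 h (1637 to 1921 against 1428 to 1608). Ventral and interneuron sums were lower in mutants at E11.5 (980 to 1210 against 1417 to 1674) and overlapped in the later conditions. At 24 h 5 choroid plexus and cortical hem markers summed to 5677 to 17301 in mutants against 2008 to 4565 in controls. Of the 4 of these that were tested, 1 was called higher and 1 lower in mutants. The choroid plexus and hem sums were also higher in mutants at E11.5 and 12 h, and overlapped at E14.5 (1502 to 8131 in mutants and 3689 to 5669 in controls).

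Levels were therefore also taken relative to the summed neuronal markers of the same library, a scale chosen after the data had been seen. On this scale *Mef2c* at 24 h was at 37.7, 33.4 and 38.6 per 1000 marker counts in mutants 1, 2 and 6 and at 42.2, 56.0 and 44.5 in controls 3, 4 and 5. The groups still did not overlap, and the log2 difference went from -0.69 to -0.37 (exact permutation p = 0.1, the smallest possible). At 12 h control 5 (32.4) lay within the mutants (24.0 to 36.9), with a difference of -0.63 (exact permutation p = 0.2). In E14.5 cortex the *Mef2c* difference was -0.14 and that of *Rorb* 0.01 (exact permutation p = 0.3 and 0.9), with overlapping groups for both genes. *Rorb* kept a difference of -0.35 at 12 h and -0.20 at 24 h with overlapping groups (exact permutation p = 0.2 and 0.3). The *Cux2* difference went from -0.36 to -0.06 at E14.5 and from -0.28 to 0.05 at 24 h, and that of *Pou3f1* at E14.5 from -0.30 to -0.00, with overlapping groups (exact permutation p = 0.5, 0.7 and 1). On this scale every mutant lay above every control for *Pou3f1* (0.38) and *Pou3f2* (0.26) at E11.5 and for *Cux1* (0.56) at E14.5. At 24 h the same held for *Cux1* (0.43), *Pou3f2* (0.52) and *Pou3f3* (0.39), each with the smallest possible exact permutation p of 0.1. As the mean neuronal sum was lower in mutants in each condition, a gene with equal counts in both genotypes comes out higher in mutants here. The share of all genes whose genotypes lie apart on this scale was not counted.

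*Mef2c* is also transcribed in endothelium and microglia, and the cultures held little of either. Summed over 6 microglial markers the level was 270 to 943 in the 12 cortices and 6.31 to 61.3 in the 12 cultures, and over 6 endothelial markers 847 to 1288 and 11.3 to 103. In 3 culture groups 1 of the 6 markers was at 0 in all libraries. These were the microglial gene *Aif1* in 12 h mutants and the endothelial genes *Cldn5* in 12 h controls and *Tie1* in 24 h controls. Endothelial sums at 12 h were 70.5 to 103 in mutants and 24.3 to 50.3 in controls. At 24 h they overlapped (11.3 to 95.1 and 19.1 to 38.8). *Mef2c* stood at 835 to 2160 in the 12 cultures. In E14.5 cortex microglial markers summed to 745 to 943 in mutants against 401 to 466 in controls, with 1 of 6 called, while *Mef2c* lay below the controls. Levels of unlike genes cannot assign the *Mef2c* reads to a cell type, and their source was not tested.

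**Figure D4:**
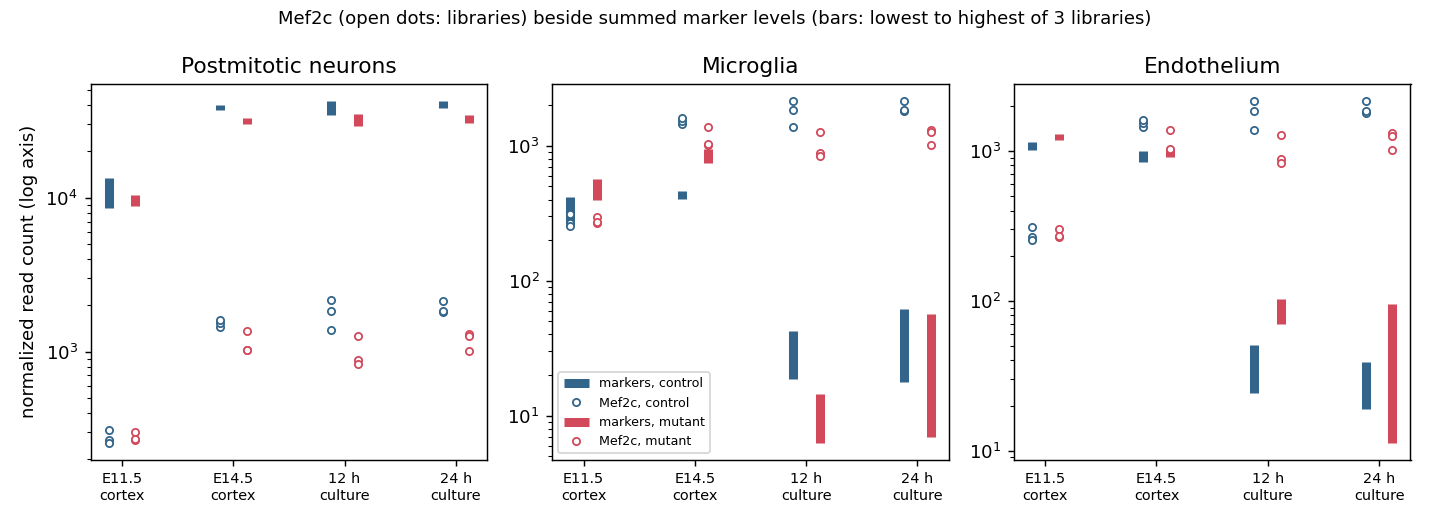
*Mef2c* in each library (open dots) beside the range of summed marker levels over 3 libraries (bars) for neurons, microglia and endothelium, on a log axis of normalized read count. In cultures the microglial and endothelial sums (at most 103) lie far below *Mef2c* (835 to 2160), while the neuronal sums of mutants lie below those of controls in E14.5 cortex and at 24 h.

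Technical measures moved with genotype at 24 h too. The mutant libraries held 7903426 to 11645213 reads and the controls 4732781 to 5709443, the *Gm42418* share was 20.5% to 23.0% against 6.26% to 13.9%, and 10 liver transcripts summed to 123 to 396 against 11.3 to 27.0, with 6 of the 10 at 0 in all controls. With a term for the *Gm42418* share the log2 fold change of *Mef2c* at 24 h was -0.96 (adjusted p = 0.939, limma). As these measures separate the 24 h genotypes completely, they and the genotype cannot be told apart. The 24 h genotype values of *Mef2c*, *Rorb* and *Cux2* rest on these libraries.

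Across all 24 libraries the members fell into unlike patterns, described here as Pearson correlations of log2 counts that share age, culture and library. *Mef2c* and *Cux2* varied most alike (r = 0.91), followed by *Mef2c* and *Rorb* (0.86), and *Cux1* ran opposite to *Rorb* (-0.85). *Pou3f2* was unlike *Mef2c* (-0.13), *Cux2* (0.08) and *Pou3f3* (0.00). Among 13678 genes with a mean of at least 10, those most like *Mef2c* were *Rabgap1l* (0.983), *Tcf4* (0.978) and *Opcml* (0.977), and those most like *Rorb* were *Thy1* (0.976), *Usp29* (0.976) and *Stmn4* (0.974). For *Cux2* they were *Gng4* (0.964), *Prkacb* (0.963) and *Mras* (0.962), and for *Cux1* *Hmgn2* (0.965), *Heph* (0.945) and *Dnmt3a* (0.939). *Pou3f1* was closest to *Lzts1* (0.890), *Sox11* (0.883) and *Acot7* (0.863), *Pou3f2* to *Neurog2* (0.807), *Spop* (0.790) and *Marcksl1* (0.789), and *Pou3f3* to *Dlx6os1* (0.938), *Cbfa2t3* (0.927) and *Kirrel3* (0.924).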

How the data were processed

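RNA of 24 mouse libraries (4 conditions, 2 genotypes, n = 3) was measured by 3′ sequencing. Per the labels and the study's methods, the authors trimmed adapter and polyA sequence, mapped reads on GRCm38 by TopHat2 (2.0.10), counted them on GENCODE vM20 genes with HTSeq (0.6.1) and deposited 1 table of signal, the counts divided by a size factor per library. Whole reads were recovered in 23 of 24 libraries; in control D 1 read is worth too nearly 1, so edgeR (4.0.16) and DESeq2 (1.42.0) were not run where D enters. Genotypes, ages and culture steps were compared by limma (3.58.1, R 4.3.3, intensity trend) on log2(value + 1) where a gene's mean was at least 10, with Benjamini-Hochberg adjustment over all of them and a threshold of 0.05. Single genes were tested by exact permutation, two-sided. Gene positions came from GENCODE vM21. Each library is 1 embryo or its culture. Same-numbered E14.5 libraries come from the same embryo per the labels (correlation of deviations -0.114 to 0.235, 12 of 18 above 0.1). In simulated data with 200 changed genes limma recovered 187 changed 2-fold among 13172 genes, with 10 false calls. The changed genes had a mean of at least 50, and all genes had the same dispersion. Changes of less than 2-fold were not simulated, so this recovery need not hold for the members. The members and lists were chosen with earlier results of these data known. Within a list, up to 4 genes with the smallest adjusted p were named. Alternatives were other pseudocounts (0.1, 5), filters (none, 50), scalings, tools, covariates and libraries left out. Results for some genes of these lists are not reported here.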

Additional observations from a re-analysis of the deposited data

How the results depend on the processing

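Leaving out each library in turn changed the number of members called between genotypes at 24 h from 1 to 0 in every case (0 to 0), and *Mef2c* with pseudocount 0.1, quantile normalization, edgeR, all 24 libraries in 1 fit, a term for embryo sex or a term for the *Gm42418* share was likewise not called, giving 0 members. DESeq2 gave 2 at 24 h, and the fit of all 24 libraries gave 1 at 12 h, *Mef2c* (adjusted p = 0.0323, limma). Over the alternatives the log2 fold change of *Mef2c* at 24 h stayed between -0.96 and -0.37. From E14.5 cortex to 12 h the mutants had 1 member called without a filter and 1 to 2 when a library was left out. With age 5 to 7 members were called in controls and 4 to 5 in mutants, and 0 members in E11.5 cortex, E14.5 cortex, both ages and all 4 comparisons of genotype effects under each alternative run.

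The direction turned in 4 of the values given in the text, and none was called after turning. *Mef2c* between genotypes at E11.5 was -0.023 with quantile normalization and -0.048 with a term for sex, and -0.045 to 0.092 with a library left out. *Cux1* from E11.5 to E14.5 in mutants was 0.021 with median-of-ratios rescaling, 0.015 with quantile normalization, 0.042 in edgeR and 0.032 in DESeq2, and -0.084 to 0.021 with a library left out. Relative to the summed neuronal markers *Rorb* at E14.5 was 0.01 and *Cux2* at 24 h 0.05. The causes were not tested. Among member comparisons whose fold change the text does not give, 55 of 1391 alternative values changed sign, to a size of at most 0.19, and on the scale of the neuronal markers 9 of 16 did, to at most 0.26.

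With the embryo as a block, since cortex and cultures of a number are the same embryo, *Rorb* rose by 1.40 in controls and 1.12 in mutants from cortex to 12 h, and 1 and 2 members were called, so the pairing changed no call of a member.

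With 3 embryos per group no single permutation test can fall under 0.1. Control embryos at E14.5 were all male by *Xist* and Y-linked genes. With a term for sex the genotype value in E14.5 cortex and in the cultures of these embryos thus rests on mutant 6, the 1 male mutant. EdgeR and DESeq2 were not run on comparisons with control D.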
